A study of Mus musculus with 12 samples.

Results

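The deposited peak lists of trimethylated lysine 4 of histone H3 (H3K4me3) were compared between C2C12 cells that differentiated with the LSD1 inhibitor S2101 and with vehicle. All peaks of both lists were taken as deposited, 13589 with vehicle and 14324 with S2101, together 27913 of the 134900 peaks in the 6 lists analysed. C2C12 is a mouse myoblast line that leaves the cell cycle and fuses into myotubes when serum is reduced. Both groups were switched to DMEM with 2% horse serum, which held either 10 µM S2101 or vehicle, for 48 h (day 2), and H3K4me3 was pulled down with the antibody Millipore 07-473. The series holds 12 samples, and the 4 inputs and 2 H3 samples were not analysed here. H3K4me3 comes from experiment 2 and the lists of H3K4me1 and H3K4me2 from experiment 1, so a difference between marks and one between experiments cannot be told apart. Each mark and treatment has 1 library of 1 cell line. The comparison is therefore descriptive, with no replicate check and no p-value. Read depth is unknown, and an effect of S2101 and a difference in depth or enrichment between the libraries cannot be told apart.

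H3K4me3 is laid down by SET1 and MLL methyltransferase complexes and marks the region around the start sites of active genes. H3K4me2 usually extends beyond it on both sides, and H3K4me1 further still. LSD1, encoded by Kdm1a, demethylates the mono- and dimethylated forms of lysine 4, while the trimethylated form is a substrate of the KDM5 enzymes. Trimethylated H3K4 is thus not a direct substrate of LSD1, although it is made by adding a methyl group to the dimethylated form. A peak's width is the stretch over which the peak caller found enrichment, so it depends on both the spread of the mark and the signal over background.

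Most H3K4me3 peaks had exactly 1 partner in the other list, and most of these pairs were slightly wider with S2101. The 12212 pairs, in which a peak overlapped by at least 1 bp 1 peak of the other list and neither overlapped a further one, held 89.9% of the vehicle peaks and 85.3% of the S2101 peaks. Vehicle peaks of these pairs had a median width of 1711 bp and their S2101 partners one of 1823.5 bp. The median difference within a pair was 100 bp (95% order-statistic interval 97 to 104 bp), and the median width ratio, S2101 over vehicle, was 1.06 (1.056 to 1.060). These intervals cover counting error over pairs only, and neighbouring peaks are not independent. The middle 50% of pairs ran from -1 to 217 bp, and the 5th and 95th percentiles stood at -152 and 500 bp. Of all pairs, 74.7% were wider and 25.0% narrower with S2101, and 31 had the same width. Along the genome the median difference was positive on every one of the 19 autosomes, from 73 bp on chromosome 13 to 113.5 bp on chromosome 2. The share of wider pairs ran from 69.9% on chromosome 12 to 77.3% on chromosome 8. Autosomes of 1 library are not replicates.

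Pairs that differed by more than 1.2-fold were called wider or narrower, and the wider calls were many times more frequent. With S2101, 1973 pairs (16.2%) were wider and 159 (1.3%) narrower by that rule. Past 1.1-fold the shares were 34.7% and 4.79%, and past 1.5-fold 3.08% and 0.156%. The wider pairs had a median vehicle width of 1057 bp, against 1711 bp over all pairs. Of them, 918 (46.5%) lay under 1000 bp, a share not counted over all pairs, and 66 were at least 2-fold wider. Their median difference was 359 bp, a ratio of 1.31. The narrower pairs had a similar vehicle median of 1044 bp, and 47.8% of them lay under 1000 bp. They differed by a median of -237 bp, a ratio of 0.788. A short peak passes a fold rule with a smaller difference in base pairs, so both calls favour short peaks by construction. The pairs of the other marks, measured in the same way, went in the opposite direction, but they held a smaller part of their lists. H3K4me2 pairs held 47.5% of the vehicle and 41.7% of the S2101 peaks of that mark. H3K4me1 pairs held 25.5% and 49.8%. Of 10188 H3K4me2 pairs, 9806 (96.3%) were narrower and 3 (0.0294%) wider, with a median ratio of 0.503. Of 10293 H3K4me1 pairs, 7829 (76.1%) were narrower and 568 (5.52%) wider, with a median ratio of 0.606.

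The length listed with S2101 and not with vehicle came to 3.05 Mb, against 0.672 Mb listed with vehicle and not with S2101. Of the gained length, 2.06 Mb (67.5%) lay at the edges of pairs, 0.792 Mb (26.0%) in peaks listed with S2101 only and 0.135 Mb (4.42%) in fused peaks. Of the lost length, 0.523 Mb (77.8%) lay at the edges of pairs and 0.0966 Mb (14.4%) in peaks listed with vehicle only. H3K4me3 therefore had a net gain of 2.38 Mb, while the net change was -18.2 Mb for H3K4me2 and -17.6 Mb for H3K4me1.

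The relative difference in width was largest for narrow peaks, but the difference in base pairs by starting width depended on which list set the starting width. Pairs were cut into 10 classes of equal size. With classes by vehicle width, the narrowest class (244 to 768 bp, median 623 bp) had a median ratio of 1.22 (1.197 to 1.238) and 52.5% of it was called wider. The widest class (median 3441 bp) had a median ratio of 1.03 and 4.09% called wider. In base pairs these classes gained a median of 132.5 bp (119 to 144) and 115.5 bp (101 to 136), and the 8 classes between them 84 to 108 bp. A class chosen on the vehicle width collects peaks whose vehicle width happened to be low or high, which moves the ratio by itself. Classes by the S2101 width carry the opposite tendency. With those, the median ratio was 1.08 in the narrowest and 1.05 in the widest class, the share called wider 30.6% and 10.1%, and the median gain 55 bp (47 to 62) and 195 bp (177 to 205). With classes by the mean of both widths, which favours neither list, the ratio was 1.13 and 1.04, the share called wider 40.8% and 6.55%, and the gain 84 bp (76 to 94) and 154 bp (137 to 174). All 10 classes of every one of the 3 divisions had a median ratio above 1 and a positive median gain.

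**Figure D1:**
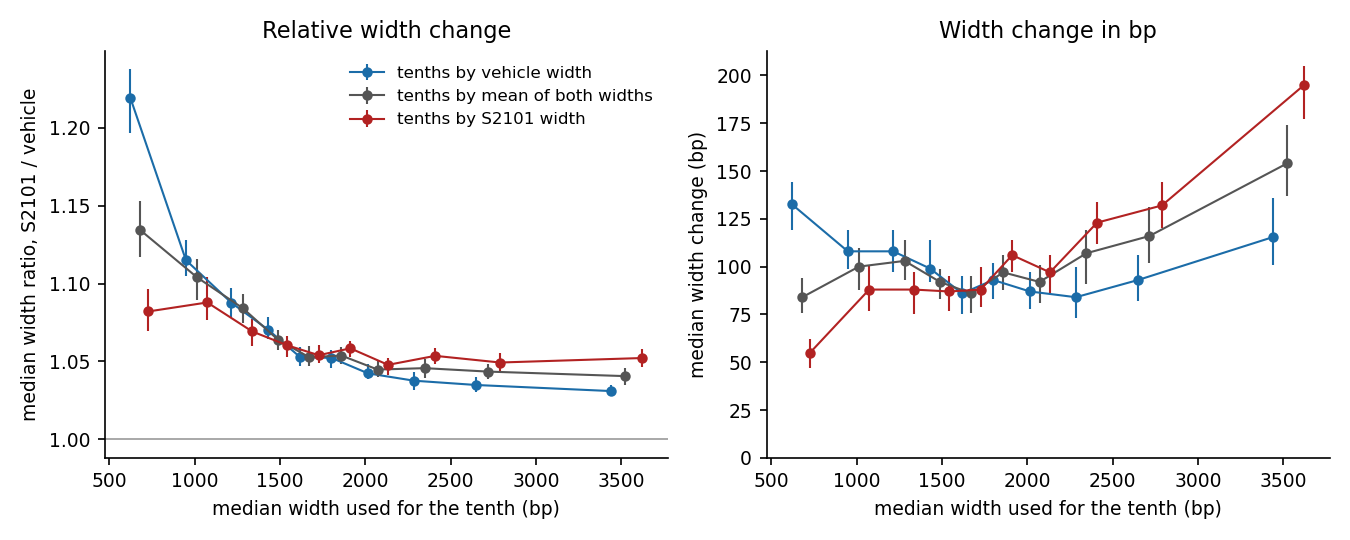
Median width ratio (left) and median width difference in bp (right) of H3K4me3 pairs in 10 classes of equal size, against the median width used to form the class, with 95% order-statistic intervals as bars. The ratio lies above 1 in every class, and the gain in bp by vehicle width is lowest in the eighth class (84 bp) and higher at both ends (132.5 and 115.5 bp), while the widest class gained more than the narrowest by mean width (154 against 84 bp) and by S2101 width (195 against 55 bp).

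The authors' score stands at or just above 3100 for 56.5% of vehicle and 59.8% of S2101 peaks. The median gain in base pairs was similar for pairs at and below this limit, which also differ in width. The 7165 pairs with both scores at this limit (vehicle median 2129 bp) were wider with S2101 by a median of 96 bp. The 4141 pairs with both scores below it (vehicle median 1011 bp) were wider by 106 bp. In relative terms these were ratios of 1.044 and 1.102, and 31.2% of the pairs below the limit were called wider and 2.85% narrower. Only the S2101 score was at the limit in 878 pairs, with a median gain of 103.5 bp. Only the vehicle score was at the limit in 28 pairs, with a median gain of 65 bp.

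Both edges of the pairs lay further out with S2101, by the same median distance. The left edge, the one with the lower coordinate, stood 43 bp further out (41 to 45 bp), with the middle 50% of pairs from -16 to 119 bp, and the right edge 43 bp (41 to 45 bp), from -14 to 121 bp. The means were 61.6 bp (SD 143, n = 12212 pairs) on the left and 64.2 bp (SD 150) on the right. The midpoint of the peaks did not move in a preferred direction: its median shift was 0 bp and its median absolute shift 52.5 bp. In the H3K4me2 pairs the edges stood further in, by medians of -279 bp (left) and -282 bp (right), and in the H3K4me1 pairs by -118 bp and -119 bp.

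**Figure D2:**
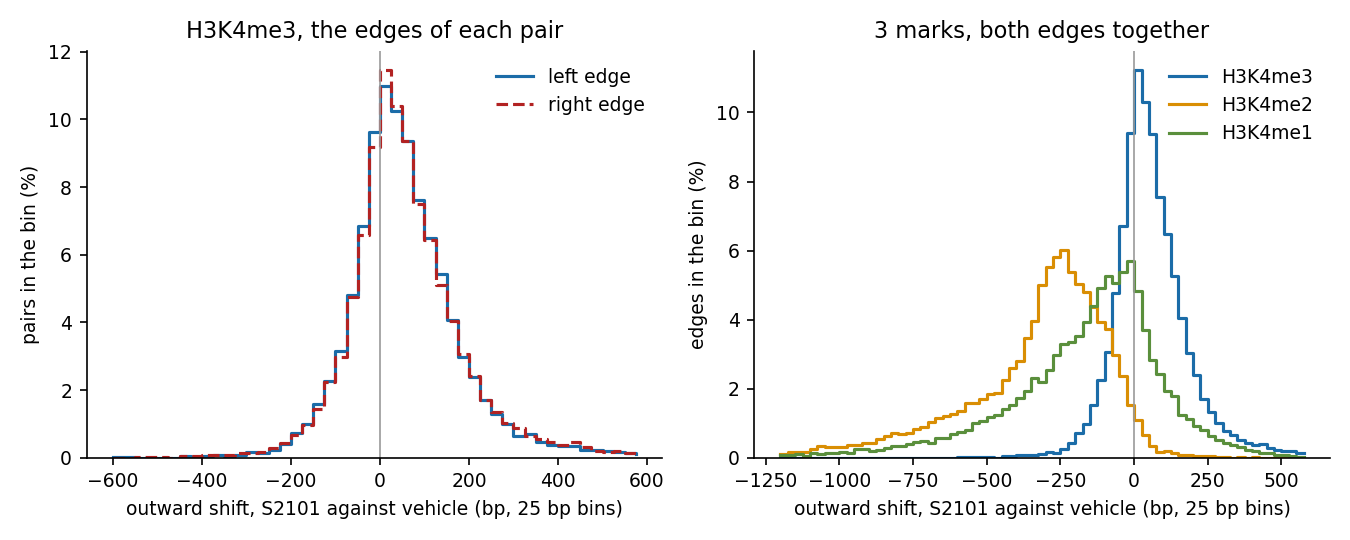
Distribution of the outward shift of peak edges, S2101 against vehicle, in bins of 25 bp. The left panel shows the left and right edges of H3K4me3 pairs, whose curves nearly coincide (medians 43 and 43 bp), and the right panel shows both edges of the pairs of each mark, with H3K4me2 and, less far, H3K4me1 displaced inward. Shifts beyond the axis are not drawn.

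The shift of the left edge said little about that of the right edge of the same peak. An edge was counted as moved when it differed by at least 50 bp, and by that rule 11588 of 24424 edges (47.4%) were out and 3677 (15.1%) in. Across the 12212 pairs the shifts of the left and right edge had a Pearson correlation of 0.0166 and a Spearman correlation of 0.0180, given as a description, since all pairs share the same libraries. The right edge was out in 48.3% of the pairs whose left edge was out (95% Wilson interval 47.0 to 49.6%) and in 46.9% of the others (45.7 to 48.2%). For comparison, the Pearson correlation was 0.0685 for H3K4me2 and -0.170 for H3K4me1 pairs.

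With the 50 bp rule, one-sided extension was the most frequent class of H3K4me3 pairs, but this class pools extension at the left and at the right edge. The left edge alone was out in fewer pairs (2151) than both edges were (2790). The shares that unrelated edges would give were not computed, so no preference for one-sided extension can be read from the order. In 4296 pairs (35.2%, 95% Wilson interval 34.3 to 36.0%) 1 edge was out and the other in place, and these were wider by a median of 133 bp. The edge that moved was the left one in 2151 of them (50.1%). The order of the classes rests on the 50 bp rule. With 100 bp, both edges in place was the most frequent class (39.1%), followed by 1 edge out (37.8%), with both out in 9.44%. With 1 bp, where almost no edge is in place, 47.3% had both out and 0.647% had 1 out. Both edges were out in 2790 pairs (22.8%, 22.1 to 23.6%), with a median difference of 279 bp and a ratio of 1.18. A further 1742 pairs (14.3%) had both edges in place, and 1712 (14.0%) had 1 edge out and 1 in. Withdrawal was less frequent, with 1 edge in and the other in place in 1379 pairs (11.3%) and both in in 293 (2.40%). Among the 1973 pairs called wider, 1243 (63.0%) had both edges out and 648 (32.8%) had 1 out. The width difference is the sum of both edge shifts, so this call favours pairs with both edges out by its construction. H3K4me2 pairs had both edges in in 87.1% of cases, and 2 pairs had both out. H3K4me1 pairs had both edges in in 37.0% and both out in 0.865%.

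**Figure D3:**
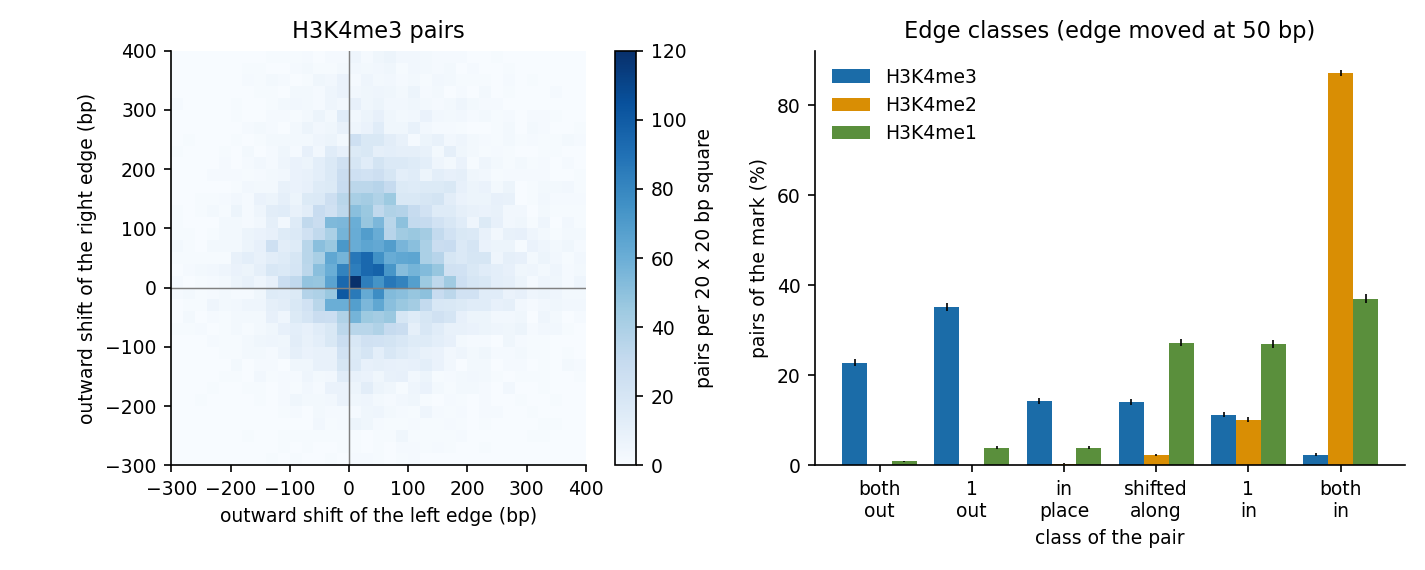
Left, number of H3K4me3 pairs by the outward shift of the left edge and of the right edge (bp, squares of 20 bp). The cloud is densest near 0 (120 pairs in the square that starts at 0 on both axes), reaches further outward than inward and shows no visible diagonal tilt. Right, share of the pairs of each mark in the 6 edge classes, with 95% Wilson intervals as bars. At this rule 1 edge out (35.2%), which pools left and right, is the most frequent H3K4me3 class and both edges in (87.1%) the most frequent H3K4me2 class.

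Long extensions were few but held much of the gained length. Of all pair edges, 2855 (11.7%) were out by at least 200 bp, against 386 in by as much, and these 2855 edges carried 47.8% of the length gained in pairs. At least 500 bp were gained at 388 edges and lost at 21, and at least 1000 bp gained at 26 and lost at 0. The opposite edge of the same peak differed little from the typical edge. Its median shift was 46 bp where the first edge was out by at least 200 bp, 54 bp at 500 bp or more and 40.5 bp at 1000 bp or more.

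The 5 largest gains illustrate both forms, with all positions in mm9. At chr8:123638828-123645265 the peak went from 4544 bp (vehicle) to 6438 bp (S2101), with 1085 bp added on the left and 809 bp on the right. At chr5:145724212-145727551 it went from 1482 to 3340 bp, almost wholly at the left edge (1778 bp against 80 bp). The largest ratio, 3.79, was at chr5:118477373-118479866, where a 658 bp peak with an authors' score of 280.3 stood against a 2494 bp peak with a score of 1795.41. The vehicle H3K4me2 list covered all 2494 bp of that place and the S2101 list 2318 bp. At chr9:69301138-69306008 the right edge lay 1846 bp further out while the left edge differed by -26 bp. At chr6:149257053-149261824 the right edge lay 1566 bp and the left edge 135 bp further out. Of these 5 places, 4 had peaks at the score limit in both lists, and all 5 held H3K4me2 with both treatments. Over all pairs, 58.7% had both scores at the limit, and 97.1% of the vehicle peaks overlapped vehicle H3K4me2 and 91.4% S2101 H3K4me2. A contrasting one-sided gain was at chr9:5308566-5311748, which went from 1727 to 3183 bp, with 1446 bp on the right and 10 bp on the left, and had no H3K4me1 or H3K4me2 peak in either treatment. The third-largest one-sided gain, at chr5:120960912-120963958, went from 1678 to 3047 bp, with 1342 bp on the right and 27 bp on the left.

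The largest losses were smaller than the largest gains. A peak on chromosome 18 went from 4196 bp (vehicle) to 3288 bp (S2101), a difference of -908 bp, most of it on the right (-777 bp). The peak at chr2:125329232-125332818 also differed by -908 bp, from 3587 to 2679 bp, with -607 bp on the left. At chr19:38129384-38131162 the S2101 peak was 967 bp wide against 1779 bp for vehicle, with -777 bp on the right and -35 bp on the left. At chr7:106497583-106502323 and chr9:65737632-65739324 the differences were -770 and -747 bp, shared between both edges.

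Fused peaks, where 2 or more vehicle peaks lay under 1 S2101 peak, were more frequent than split ones. There were 456 such places with 928 vehicle peaks, 15 of them with 3 or more, against 176 places where 1 vehicle peak stood over 2 or more S2101 peaks. At 46 places several peaks of both lists overlapped. More fused than split places were found on 18 of the 19 autosomes, the exception being chromosome 19 with 7 fused and 11 split. Among peaks with scores of at least 200 there were 281 fused and 116 split places. After peaks under 500 bp apart had been merged in each list there were 57 and 5, but this merging closes most bridged gaps by its construction. H3K4me2 had 7 fused and 5605 split places, and H3K4me1 392 and 1591.

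The gaps that closed were short. Between neighbouring vehicle peaks, 523 gaps with a median of 59 bp (longest 1088 bp) were bridged with S2101, and 227 gaps between S2101 peaks with a median of 40 bp (longest 336 bp) were bridged with vehicle. Of vehicle gaps of 1 to 50 bp, 229 of 283 (80.9%, Wilson 75.9 to 85.1%) were bridged with S2101, while 135 of 254 S2101 gaps of that size (53.1%) were bridged with vehicle. The shares were 49.5% and 14.4% for gaps of 101 to 200 bp, 32.4% and 3.65% for 201 to 500 bp, and 13 of 112 against 0 of 116 for 501 to 1000 bp. Gaps were thus bridged more often with S2101 in every class up to 1000 bp. Among vehicle gaps of at most 500 bp, those bridged with S2101 had 72.3% of their bases in vehicle H3K4me2 and 24.0% in S2101 H3K4me2, and those not bridged 48.5% and 8.09%. The bridged gaps were also shorter (median 56 against 131 bp), and the part of gap length in these shares was not tested. Gaps bridged in the opposite direction had 67.1% in vehicle and 12.2% in S2101 H3K4me2 and a median of 40 bp, and those that stayed 54.4%, 10.3% and 110 bp.

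The longest bridged gap, 1088 bp, lay at chr11:98797113-98804186, where vehicle peaks of 3981 and 1590 bp stood under 1 S2101 peak of 7074 bp. Vehicle H3K4me2 covered all 7074 bp and S2101 H3K4me2 5559 bp, while vehicle H3K4me1 covered 3709 bp and S2101 H3K4me1 279 bp. The next longest gaps were 942 bp at chr3:89221141-89226955, 621 bp at chr8:122750995-122756681 and 617 bp at chr10:80728907-80732302. At chr15:76024296-76038563, where 3 vehicle peaks of 2409, 5518 and 5160 bp and a longest gap of 611 bp lay under 1 S2101 peak of 14268 bp, vehicle H3K4me1 covered 7264 bp and S2101 H3K4me1 3788 bp. The most vehicle peaks under 1 S2101 peak were 4, at chr8:87294619-87299851 (5233 bp). At chr13:23625181-23628043, vehicle peaks of 643, 430 and 1026 bp lay under 1 S2101 peak of 2863 bp. Of the split places, chr13:42144522-42149070 had the longest gap, 336 bp, between S2101 peaks of 1376 and 2870 bp, followed by chr11:60165004-60167316 (271 bp) and chr19:5847359-5850289 (264 bp).

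Neighbouring peaks that remained separate pairs showed whether facing edges moved differently from outer ones. Where pairs lay 500 to 2000 bp apart (205 neighbours), facing edges were out by a median of 64.5 bp (53 to 80) and the outer edges by 56 bp (47 to 70), intervals that overlap. From 2000 to 10000 bp the medians were 42 and 49 bp (1177 neighbours), and from 10000 to 50000 bp 43 and 43 bp (3890 neighbours). Facing edges under 500 bp apart were out by 10 bp against 40.5 bp for outer edges (284 neighbours), but neighbours whose facing edges met had become fused and are not among these. The width differences of neighbours had a Pearson correlation of 0.162 under 500 bp, 0.0290 from 500 to 2000 bp and 0.00191 beyond 50000 bp, again a description.

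Peaks listed with S2101 only were 1207 (8.43% of the S2101 list), against 176 listed with vehicle only (1.30% of the vehicle list). With the S2101 list shortened to the length of the vehicle list by its 735 lowest-scoring peaks, the counts were 654 and 315. The 315 include vehicle peaks that overlap an S2101 peak left out by the shortening. With scores of at least 200 in both lists the counts were 837 and 60. Both counts include peaks whose overlapping peak in the other list scored under 200 and was left out. With at least 50% of both peaks required to overlap they were 1573 and 838, but these include peaks that overlap the other list by less. By the 1 bp rule the share of S2101-only peaks in the S2101 list ran from 6.10% on chromosome 9 to 11.4% on chromosome 15. They were narrow and low-scoring, with a median width of 622 bp (middle 50% from 512 to 738.5 bp) and a median authors' score of 150.6. None stood at the score limit, 72.5% scored under 200 and 77 were wider than 1000 bp. Among the narrowest 10% of S2101 peaks (209 to 693 bp), 814 of 1433 (56.8%) were listed with S2101 only, and in the lowest-scoring 10% 935 (65.2%). The next 10% by width held 22.1% and the one after 4.05%. The vehicle-only peaks had a median width of 546 bp and a median score of 121.27, and the narrowest 10% of vehicle peaks (224 to 694 bp) held 157 of them, 11.6% of that class. Scores are the authors' own and rank peaks within a list only.

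**Figure D4:**
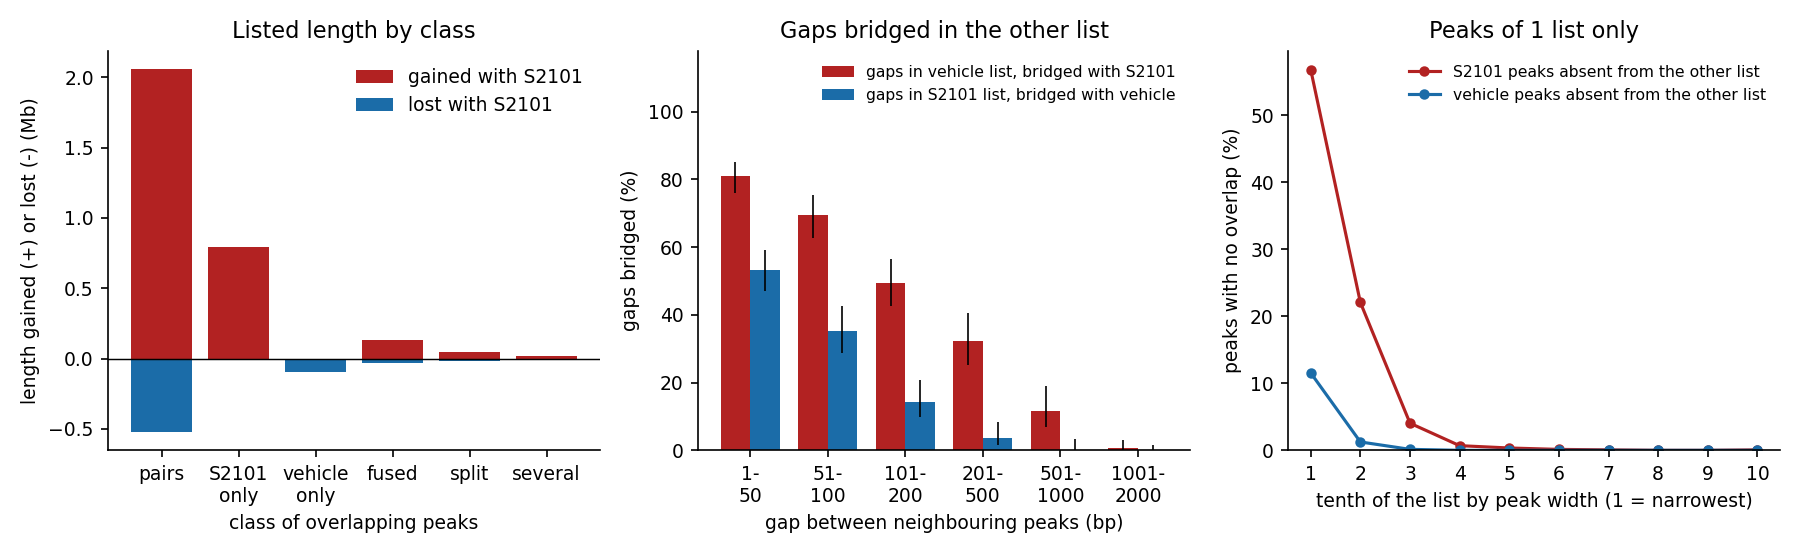
Left, H3K4me3 length (Mb) gained and lost with S2101 in each class of overlapping peaks. Middle, share of gaps between neighbouring peaks of 1 list that a peak of the other list bridges, by gap length, with 95% Wilson intervals (80.9% against 53.1% at 1 to 50 bp). Right, share of each list's peaks with no overlap in the other list, in 10 classes by width from the narrowest, where the S2101 share falls from 56.8% to 4.05% by the third class.

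Peaks listed with S2101 only lay mostly away from vehicle peaks. They overlapped H3K4me2 less often, and H3K4me1 somewhat more often, than the paired peaks did. The nearest vehicle H3K4me3 peak was a median of 19024 bp away. It was under 500 bp away for 156 (12.9%), 500 to 5000 bp for 201 (16.7%), 5 to 50 kb for 494 (40.9%) and at least 50 kb for 356 (29.5%). For the vehicle-only peaks the median distance to an S2101 peak was 16.3 kb, and 30 (17.0%) lay under 500 bp away. A vehicle H3K4me2 peak overlapped 76.5% of the S2101-only peaks (Wilson 74.0 to 78.8%) and an S2101 H3K4me2 peak 57.4%. For the vehicle-only peaks these shares were 75.6% and 43.2% (36.1 to 50.6%), and for all paired vehicle peaks 97.1% and 91.4%. Vehicle peaks under 800 bp that had a partner, which are closer in width (1317 peaks, median 636 bp), had 83.2% and 67.4%. For H3K4me1 the order was the opposite. A vehicle H3K4me1 peak overlapped 37.8% of the S2101-only and 37.5% of the vehicle-only peaks. For all paired vehicle peaks the share was 33.9%, and for those under 800 bp 28.8%. With S2101 H3K4me1 these 4 shares were 15.0%, 13.6%, 9.56% and 8.73%. No other mark in either treatment overlapped 199 S2101-only peaks (16.5%) and 38 vehicle-only peaks (21.6%). This share was not counted for paired peaks, so nothing particular to the single-list peaks can be read from it.

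The widest peak listed with S2101 only, at chr17:39979877-39985843, was 5967 bp wide with a score of 1064.77, and lay within vehicle H3K4me2 over all 5967 bp and within S2101 H3K4me2 over 5849 bp. It lay 1028315 bp from the nearest vehicle H3K4me3 peak. No filter for repeated or poorly mappable sequence was applied here, so peaks in such sequence may be among those named. The other 4 of the 5 widest were 1709 to 1961 bp wide. Of these, the peak at chr16:43505716-43507676 lay 1111 bp from a vehicle peak and was covered by vehicle H3K4me2 over all its 1961 bp. The peak at chr16:4641838-4643591 (1754 bp) lay 70 bp from a vehicle peak. Those at chr15:55138070-55139886 (1817 bp) and chr15:31497954-31499662 (1709 bp) lay 192351 and 29998 bp from the nearest, and vehicle H3K4me1 and H3K4me2 each covered the last over its full width. The widest vehicle-only peaks were shorter, with 1163 bp at chr3:68844981-68846143, 1093 bp at chr13:76718758-76719850, where no other mark was listed, 954 bp at chr1:159185960-159186913, 850 bp at chr11:77317055-77317904 and 832 bp at chr2:93173871-93174702.

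The bases gained at pair edges lay largely in vehicle H3K4me2, at a share between those of the stretches inside and outside the edge. Of the 2.06 Mb gained at 16732 edges, 77.1% lay in vehicle H3K4me2, 19.9% in S2101 H3K4me2, 18.1% in vehicle H3K4me1 and 4.77% in S2101 H3K4me1. Stretches of equal length just outside the S2101 edge had 45.6%, 4.55%, 14.6% and 4.38%, and those just inside the vehicle edge 88.6%, 43.6%, 16.3% and 3.53%. Lost bases, 523287 bp at 7575 edges, had 80.2% in vehicle H3K4me2, 11.5% in S2101 H3K4me2 and 16.5% in vehicle H3K4me1, with 58.3%, 4.75% and 13.9% in the stretch outside and 88.9%, 29.4% and 16.0% in that inside. Gained and lost bases therefore had a similar share in vehicle H3K4me2, and gained bases had the higher share in S2101 H3K4me2.

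Whether an edge that met H3K4me2 outside moved further depended on where the flank was measured. With 200 bp counted outward from the vehicle edge, edges with a flank fully in vehicle H3K4me2 were out by a median of 84 bp (n = 9703) and those without any by 14 bp (n = 4572). Counted from the S2101 edge the order was reversed, with 18 bp against 74 bp, and from the middle of both edges the values were 55 and 42 bp. The flank begins at an edge whose own position enters the shift, so the vehicle-edge and S2101-edge settings carry opposite tendencies, and the middle lies between them. From the middle, full flanks had the higher value among narrower pairs and about the same value among wider ones: in 4 classes by mean width they were 60 against 33 bp, 50 against 37 bp, 45 against 48 bp and 62 against 61.5 bp, from narrow to wide. In S2101 H3K4me2, full flanks had a median of 153 bp (n = 511) and empty ones 39 bp (n = 21073) from the middle of both edges, 232 and 31 bp from the vehicle edge, and 32 and 46 bp from the S2101 edge. The order for S2101 H3K4me1 was the same from all 3 starting points: 77 against 42 bp from the vehicle edge, 79 against 42 bp from the middle and 74 against 42 bp from the S2101 edge. Fully covered flanks of this kind were few (387 to 406 edges). For vehicle H3K4me1 the medians were 69 against 40 bp, 63 against 41 bp and 51 against 42 bp. The same dependence held within pairs with 1 edge out. There the flank of the moved edge had more vehicle H3K4me2 than that of the still edge in 2237 pairs and less in 1085 when counted from the vehicle edge, more in 1907 and less in 1555 from the middle, and more in 1485 and less in 2053 from the S2101 edge. Pairs with 1 edge in had nearly the same balance from the middle, more in 625 and less in 507 (55.2% of the unequal pairs, against 55.1% for pairs with 1 edge out).

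**Figure D5:**
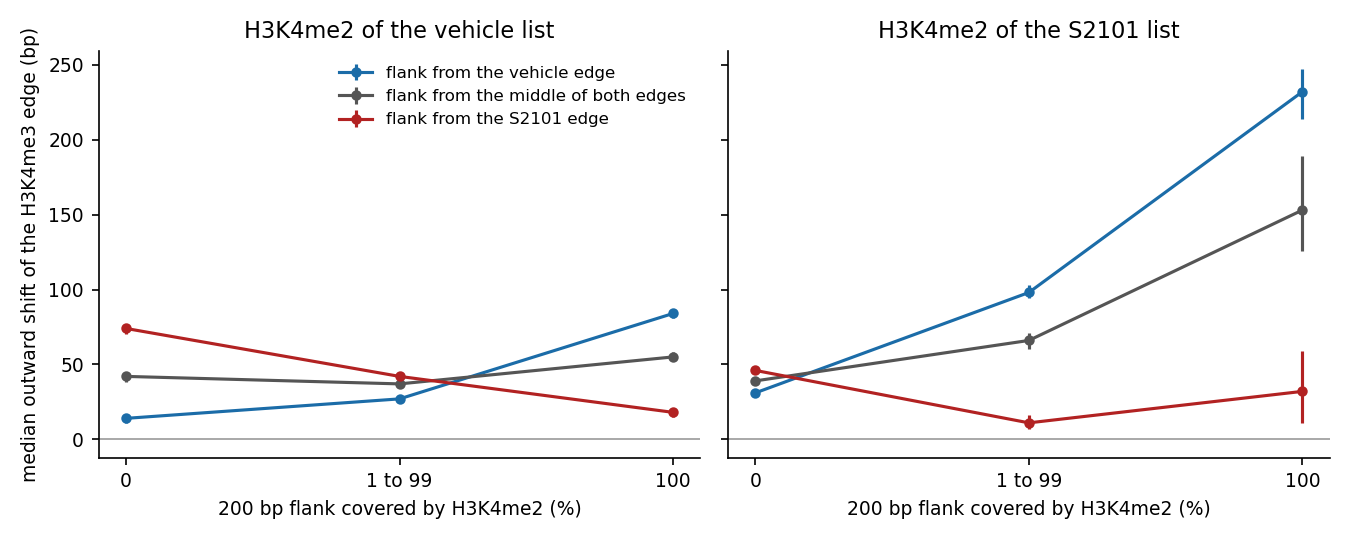
Median outward shift of H3K4me3 edges (bp) by the share of the 200 bp flank outside the edge that lies in H3K4me2 of the vehicle list (left) or the S2101 list (right), with 95% order-statistic intervals as bars. The lines of the vehicle edge (14 to 84 bp, left) and of the S2101 edge (74 to 18 bp, left) cross, while the middle of both edges gives 42 and 55 bp.

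Where each mark had exactly 1 pair, the relative position of the H3K4me2 and H3K4me3 borders was exchanged. At these 5158 places H3K4me3 had a median width of 1423 bp (vehicle) and 1532 bp (S2101), and H3K4me2 one of 1442 and 698 bp. With vehicle the H3K4me2 edge lay outside the H3K4me3 edge by a median of 114 bp (left) and 113 bp (right), at 71.7% of edges, and on both sides at 2528 places (49.0%). With S2101 it lay inside, by -240 and -242 bp, with 8.39% of edges outside, and H3K4me2 extended beyond H3K4me3 on both sides at 76 places (1.47%). H3K4me2 lay within the H3K4me3 borders on both sides at 5.64% of places with vehicle and 84.5% with S2101. The H3K4me3 edge was out and the H3K4me2 edge in at 44.3% of edges, and both were out at 0.485%. Across the places, the shifts of both marks at the same edge had a Pearson correlation of -0.0449 (left) and -0.0196 (right, n = 5158, a description). Most of the exchange came from the H3K4me2 edge, which stood in by medians of -290 and -292 bp against 41 and 43 bp outward for H3K4me3.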

How the data were processed

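ChIP-seq peak lists of 6 libraries were used, and H3K4me3 was the mark compared. Peaks were called with MACS in Galaxy, 1 list per library, per the file headers. Per the submitters' processing notes, the build was mm9 and the tools included Bowtie2 and deepTools. Read counts, the handling of duplicates, the control given to the caller and its version and settings were not given in the sources used here. Each peak's score is as deposited by the authors, and the file headers do not name its quantity. Positions were read from the deposited files and are printed 1-based.

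Peaks of both lists were joined by an overlap of at least 1 bp. Pairs, fused, split and single-list peaks, edge shifts (moved at 50 bp) and width ratios (called past 1.2-fold) followed from these groups. Medians carry order-statistic and shares Wilson intervals at 95%, for counting error only. Overlap with H3K4me1 and H3K4me2 was counted in base pairs or as any overlap. The functions were tested on simulated lists and against bedtools 2.31.1 (Python 3.11.15, pandas 2.3.3, numpy 2.4.6, scipy 1.17.1, matplotlib 3.10.9).

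Alternatives changed the overlap, score, fold, edge and width-class rules, the length of the S2101 list and the merging of close peaks. Flanks counted from the S2101 edge or from the middle of both edges were added after seeing the data. The peaks, classes and rules were chosen with earlier results of these data known. Regions named are the 5 largest gains and 5 largest losses of width, the 3 largest one-sided gains, the 5 fused places with the longest gap and up to 3 with the most vehicle peaks, the 3 split places with the longest gap and the 5 widest peaks of each single-list set. No annotation of mm9 was at hand, so no gene names or sequences are given.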

Additional observations from a re-analysis of the deposited data

How the results depend on the processing

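The median width ratio of 1.06 was 1.056 with scores of at least 200 and 1.102 for pairs with both scores below 3100. The share of wider pairs (16.2%) was 17.7% with at least 50% of both peaks overlapping, 14.6% with scores of at least 200, 31.2% with both scores below 3100, 34.7% past 1.1-fold and 3.08% past 1.5-fold. Both edges were out in 23.8% (against 22.8%) after merging peaks under 500 bp apart, and also in 23.8% with both scores below 3100. An edge rule of 1 bp gave 47.3% with both edges out and 0.647% with 1 edge out and the other in place, and one of 100 bp 9.44% and 37.8%. With 100 bp, both edges in place was the most frequent class (39.1%). The 456 fused places became 0 with 50% of both peaks overlapping, which by its construction admits almost no fused place, 281 with scores of at least 200, and 57 after merging, against 5 split. Merging likewise closes most bridged gaps by its construction. The 1207 S2101-only peaks became 654, and the vehicle-only ones 315, when the S2101 list was shortened by its 735 lowest-scoring peaks to the length of the vehicle list. The 315 include vehicle peaks that overlap an S2101 peak left out by the shortening. With scores of at least 200 the counts were 837 and 60, which include peaks whose overlapping peak scored under 200 and was left out. With 50% of both peaks overlapping the counts were 1573 and 838, which include peaks that overlap the other list by less. The share of narrower pairs (1.30%) was 2.85% with both scores below 3100 and 2.15% with 50% of both peaks overlapping. The gain of the widest minus the narrowest class was -17 bp by vehicle width, 70 bp by mean width and 140 bp by S2101 width. Gained bases in vehicle H3K4me2 were 77.06% for edges out by at least 50 bp, against 77.15%. The difference between full and empty flanks counted from the S2101 edge was -56 bp in vehicle H3K4me2 and -14 bp in S2101 H3K4me2, reversed from the vehicle edge. The cause of these differences was not tested. Depth is unknown, so narrow and low-scoring peaks are the least secure.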
